A study of Mus musculus with 45 samples.

Results

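Retinoic acid (RA) raised 84 of the 54,532 genes in the count table early and transiently in mouse neuroepithelial organoids, as defined by the difference between organoids grown with and without RA. The members were chosen from CPM (a gene's share of all counted reads of its library, scaled to 1000000 reads). With d(t) as log2 of the mean RA-treated CPM + 0.5 minus log2 of the mean untreated CPM + 0.5 at time t, a gene was kept when d(18) was at least 1.5, its mean CPM with RA at 18 h was at least 3, and d(66) and d(78) both lay between -0.5 and 0.5. Symbols beginning with Hox or Cyp26 were left out. In all, 368 genes passed the 18 h thresholds, 21 of them Hox or Cyp26 genes, and the 84 members were 24.2% of the other 347. Of the 263 genes raised at 18 h that were not members, 186 stood above 0.5 at both 66 and 78 h and 12 below -0.5 at both. Only Cyp26a1 and Hoxa2 met every threshold and were left out by name.

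The organoids were grown from R1 cells, a mouse embryonic stem (ES) cell line, which formed organoids in Matrigel under N2B27 medium. At day 2 after seeding, all-trans RA was added at 250 nM or the organoids were left without it, and RNA was collected at day 2, then from both arms after 8 and 18 h and every 12 h from 30 to 78 h. Each of the 15 groups had 3 biological replicates, giving 45 libraries, and no genotype differed between the arms. The whole organoid was sequenced, so a difference in the number of cells of a type and a difference in RNA per cell cannot be told apart. The libraries held between 17,298,632 and 39,688,686 counted reads.

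RA is made from vitamin A and acts through nuclear receptors that bind DNA as dimers, classically at direct repeats of a short hexamer, and switch on neighbouring genes within hours. In the early neural tube it patterns the hindbrain and spinal cord, where Hox genes and their TALE homeodomain cofactors (the Meis and Pknox families) give cells their position along the axis. Cells also respond by raising proteins that take up, bind and break down retinoids, so that the signal limits itself.

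Because the receptors bind such repeats, the 300 bases around the transcription start (250 before it and 50 from it on) were read from RefSeq on GRCm38.p6 for the members. Windows were found for 66 of the 84 members, 92 windows in all. The hexamer AGGTCA was searched for on both strands, with AGTTCA as a close variant, GGGTCA as another and GGTTCA as the last of them, and any of these 4 followed by any other with a spacer of 1, 2 or 5 bases counted as a direct repeat. Direct repeats were present in 2 of the 92 member windows (2.17%) and in 193 of all 32,851 windows (0.588%). The spacer of 5 was found in 0 of 92 member windows and in 32 of all windows (0.0974%). The spacer of 2 was found in 1 member window, that of Ano1, against 0.268% of all windows, and the spacer of 1 in 1, that of Phactr2, against 0.222%. Ano1 encodes a calcium-activated chloride channel and Phactr2 a regulator of protein phosphatase 1 and actin. Their windows are shown because they hold the repeats, which stand in capitals and read on the opposite strand to the gene. The repeat began 72 bases before the start of Ano1 (chr7:144738524-144738823, minus strand) and 42 bases before that of Phactr2 (chr10:13324240-13324539, minus strand).
Ano1: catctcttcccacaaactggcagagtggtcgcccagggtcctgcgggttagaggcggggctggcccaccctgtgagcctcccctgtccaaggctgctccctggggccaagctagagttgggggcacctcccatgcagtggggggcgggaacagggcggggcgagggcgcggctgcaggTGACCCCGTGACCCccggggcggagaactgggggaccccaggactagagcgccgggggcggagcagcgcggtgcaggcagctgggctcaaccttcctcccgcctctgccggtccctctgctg
Phactr2: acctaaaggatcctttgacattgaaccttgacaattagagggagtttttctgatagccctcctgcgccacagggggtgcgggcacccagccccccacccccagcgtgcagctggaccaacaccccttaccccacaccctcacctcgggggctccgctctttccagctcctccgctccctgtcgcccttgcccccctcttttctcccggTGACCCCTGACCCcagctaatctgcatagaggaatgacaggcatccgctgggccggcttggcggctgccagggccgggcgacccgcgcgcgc

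Single hexamers were common, in 39 of the 92 member windows (42.4%) and in 43.7% of all windows. The windows of Stra6 (chr9:58133825-58134124, plus strand) and Cdk15 (chr1:59256656-59256955, plus strand) are shown because these genes had large RA effects in the tests below and single hexamers, in capitals, with no repeat. Stra6 had 4 windows, and the one with a hexamer is given. A match to these letters is a description of the window and not a binding site.
Stra6: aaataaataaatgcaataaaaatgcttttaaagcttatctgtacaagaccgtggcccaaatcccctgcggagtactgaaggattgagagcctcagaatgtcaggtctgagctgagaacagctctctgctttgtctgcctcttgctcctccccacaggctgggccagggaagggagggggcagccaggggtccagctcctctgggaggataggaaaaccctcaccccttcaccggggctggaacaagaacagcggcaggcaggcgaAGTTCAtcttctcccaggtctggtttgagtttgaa
Cdk15: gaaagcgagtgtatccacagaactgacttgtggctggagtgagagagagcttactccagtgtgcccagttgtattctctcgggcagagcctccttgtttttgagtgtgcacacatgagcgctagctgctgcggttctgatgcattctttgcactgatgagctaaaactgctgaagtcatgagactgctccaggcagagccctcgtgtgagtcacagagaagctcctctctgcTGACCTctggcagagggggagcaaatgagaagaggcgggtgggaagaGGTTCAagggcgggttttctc

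The members had no promoter window in the table for Zfp703, H2-Bl, Rasl10b, Plat, Pknox2, Gm45716, Dsc3, Lefty1, Gm42547, P2rx3, Srcin1, Porcn, Ppp3cc, Fhod3, Gm11611, 2810459M11Rik, Ndnf and Tmem181b-ps.

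The rule used the 18, 66 and 78 h contrasts, and those values are given only as a description. The median d of the 84 members was 1.04 at 8 h, 1.78 at 18 h, 1.40 at 30 h, 0.86 at 42 h, 0.40 at 54 h, 0.21 at 66 h and 0.06 at 78 h. The largest difference fell at 18 h for 60 members, at 30 h for 18 and at 8 h for 6. At 8 h every member had a d above 0, from 0.08 to 5.33, at 30 h the range was -0.76 to 6.03, and at 54 h it was -1.57 to 1.94. The largest d(18) belonged to Zfp703 (6.77), Stra6 (3.67), Ptprz1 (3.31), Efnb1 (3.28), H2-Bl (3.23), Rasl10b (3.19), Plppr1 (2.95), Tchh (2.90), Plat (2.84) and Pknox2 (2.76).

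**Figure D1:**
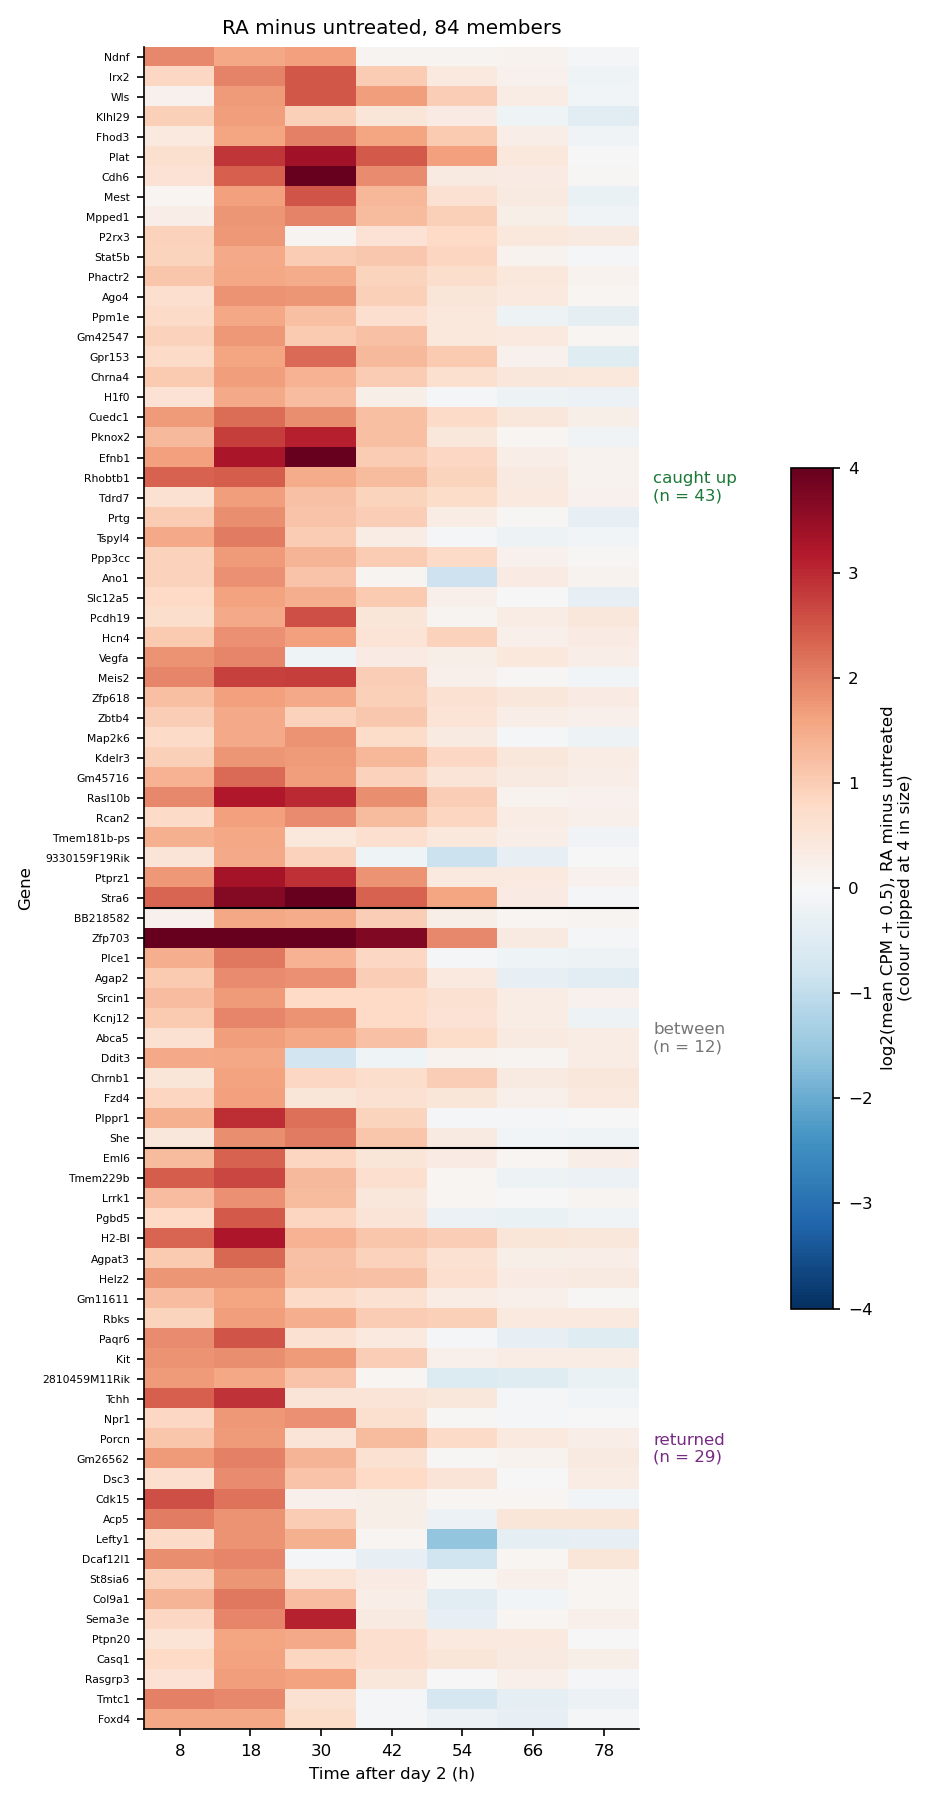
Difference between RA-treated and untreated organoids, log2(mean CPM + 0.5), for each of the 84 members (lines) at 7 times after day 2 (columns), with 3 libraries per arm and time and the colour clipped at 4. The 18, 66 and 78 h columns were used by the rule; 60 of the 84 members had their largest difference at 18 h.

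A difference can vanish because the RA-treated level falls or because the untreated level rises, and the members were split by where their levels at 66 and 78 h lay. The late level of a gene was the mean of its log2(CPM + 0.5) over both arms at 66 and 78 h, placed on a scale where its untreated level at 18 h is 0 and its RA-treated level at 18 h is 100%. At or under 33.3% a member is called returned, at or above 66.7% caught up. Of the 84 members, 43 (51.2%) had caught up, 29 (34.5%) had returned and 12 (14.3%) lay between. Thus the difference between the arms was transient in all 84 by the rule, while the late levels of the 43 lay at or above 66.7% of the way from the untreated to the RA-treated level of 18 h. Some of the 43, such as Stra6, still came down with RA after 30 h. The rule does not use this split, but it rests on the same 18, 66 and 78 h libraries and is given with no test.

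The caught-up members stayed high with RA and rose later without it. Their median log2 level over day 2 with RA was 1.14 at 8 h, 2.48 at 18 h, 2.97 at 30 h, 2.90 at 54 h and 3.06 at 78 h. Without RA it was 0.30, 0.65, 1.29, 2.40 and 3.05 at the same times. The returned members had a median with RA of 1.56 at 8 h and 2.35 at 18 h, then 1.43 at 30 h, 0.42 at 54 h and 0.26 at 78 h, and without RA it stayed between -0.08 and 0.44. The members between went from 2.38 at 18 h to 1.5 at 78 h with RA and from 0.41 to 1.23 without it.

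**Figure D2:**
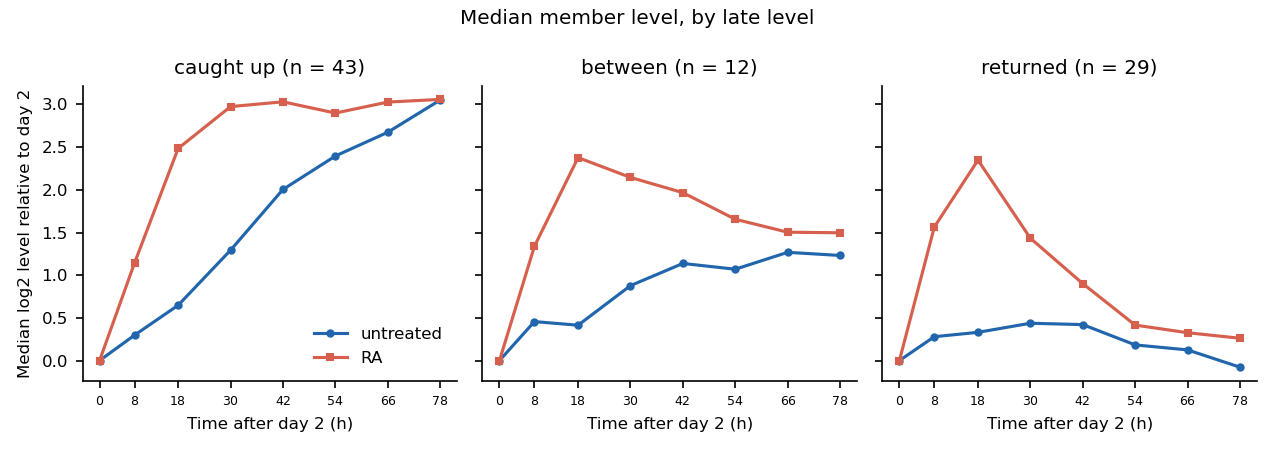
Median log2 level over the day 2 level, from log2(mean CPM + 0.5), by hours after day 2, with RA and without, for the 43 caught-up, 12 in-between and 29 returned members. The caught-up members end near 3 in both arms, and the returned members with RA peak at 18 h (2.35) and fall to 0.26 at 78 h.

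Stra6, the cell-surface receptor that takes up retinol from its carrier protein (chromosome 9, 58063788-58153996 on GRCm38), is the retinoid gene among the members. At 8 h it stood at 21.3, 21.7 and 7.48 CPM with RA and at 3.62, 3.16 and 1.98 CPM without. At 30 h it stood at 103, 84.2 and 84.2 CPM with RA and at 1.38, 1.73 and 2.45 CPM without. At 54 h the values were 41.6, 51.9 and 51.3 CPM against 14.1, 16.7 and 16.9 CPM. The arms did not overlap at any of these times, and the RA library of replicate 3 at 8 h was far below its group. The log2 fold change from edgeR's quasi-likelihood fit, with p-values adjusted by Benjamini-Hochberg over all genes tested, was 2.48 ± 0.41 (SE, n = 3 per arm) at 8 h with an adjusted p of 0.012, past neither 0.01 nor a call, 5.49 ± 0.22 at 30 h (adjusted p = 2.4e-05), 2.33 ± 0.12 at 42 h (1.3e-07) and 1.54 ± 0.11 at 54 h (9.7e-07). By 78 h both arms stood at 17.0 to 19.0 CPM.

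Of the transcription regulators, Meis2, a TALE homeodomain cofactor of Hox proteins (chromosome 2, 115863064-116065839), was called at 8 and 30 h. At 8 h Meis2 stood at 180, 191 and 88.7 CPM with RA and at 36.9, 39.0 and 42.2 CPM without. At 30 h it stood at 229, 184 and 227 CPM with RA and at 34.9, 25.03 and 32.9 CPM without. By 54 h the untreated libraries had come to 140, 146 and 155 CPM, against 172, 164 and 174 CPM with RA. The RA libraries were above the untreated at each of these times, and RA replicate 3 at 8 h was far below its group. Meis2 rose with RA at 8 h (log2 fold change 1.91 ± 0.24, adjusted p = 0.0042) and at 30 h (2.65 ± 0.16, 7.7e-05), and gave 0.15 ± 0.06 at 54 h (adjusted p = 0.059).

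Zfp703, a zinc-finger co-repressor (chromosome 8, 26977325-26981461), had the largest RA effect of all members. At 8 h it stood at 106, 101 and 85.4 CPM with RA and at 1.94, 1.93 and 1.94 CPM without. At 30 h it stood at 210, 180 and 169 CPM against 2.05, 1.62 and 3.44 CPM, and at 54 h at 95.3, 92.8 and 91.2 CPM against 19.3, 26.4 and 26.2 CPM. It is the member called higher with RA at all 4 tested times. Its log2 fold changes were 5.62 ± 0.10 at 8 h, 6.16 ± 0.26 at 30 h, 3.70 ± 0.09 at 42 h and 1.89 ± 0.10 at 54 h, with adjusted p-values from 2.4e-05 to 6.4e-10.

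Pknox2, another TALE homeodomain gene (chromosome 9, 36890982-37147407), rose at 30 h, from 4.63, 3.93 and 3.34 CPM without RA to 39.3, 36.3 and 37.7 CPM with it (log2 fold change 3.11 ± 0.15, adjusted p = 3.5e-05). At 8 h its RA libraries stood at 11.2, 9.27 and 2.70 CPM and overlapped the untreated 2.78, 2.50 and 3.24 CPM through replicate 3 (1.40 ± 0.45, adjusted p = 0.09). Irx2, an Iroquois homeodomain factor of neural patterning (chromosome 13, 72628820-72634198), stood at 11.3, 18.9 and 9.95 CPM with RA at 30 h and at 2.12, 1.97 and 1.87 CPM without (2.61 ± 0.27, adjusted p = 0.00063). At 78 h it stood at 43.0 to 46.2 CPM with RA and at 44.3 to 57.1 CPM without. Foxd4, a forkhead factor of early neural ectoderm, was near 0 in both arms by 30 h. Foxd4 stood at 7.64, 8.27 and 0.623 CPM with RA at 8 h against 1.10, 1.46 and 2.12 CPM, so the arms overlapped, and no library passed 1.13 CPM at 30 h. Stat5b, a transcription factor activated by cytokine receptors, and Zbtb4, a zinc-finger protein that binds methylated DNA, passed the test at 42 h alone (1.05 ± 0.09, adjusted p = 3.7e-06, and 1.12 ± 0.13, adjusted p = 5.1e-05). H1f0, the linker histone of differentiating cells, rose at 30 h from 69.2, 71.7 and 79.5 CPM to 175, 176 and 174 CPM (1.12 ± 0.09, adjusted p = 0.00018).

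Members that act at the cell surface in adhesion and guidance had their largest tested effects at 30 h. Cdh6, a type II cadherin that joins neighbouring cells (chromosome 15, 13028701-13173675), stood at 13.6, 30.8 and 17.8 CPM with RA at 30 h and at 0.671, 0.809 and 0.835 CPM without. The RA libraries ranged widely but lay far above the untreated ones (log2 fold change 4.61 ± 0.36, adjusted p = 0.00018). At 54 h they stood at 11.4, 21.4 and 19.6 CPM against 11.9, 13.6 and 14.8 CPM and overlapped (0.32 ± 0.20, adjusted p = 0.2). Efnb1, a membrane-bound ligand of Eph receptors (chromosome X, 99136130-99148991), stood at 71.3, 48.5 and 67.3 CPM with RA at 30 h and at 2.86, 3.18 and 2.26 CPM without, with no overlap. It rose at 8 h (1.77 ± 0.23, adjusted p = 0.0043) and at 30 h (4.36 ± 0.22, 3.5e-05).

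Pcdh19, a protocadherin (chromosome X, 133582860-133688987), stood at 5.86, 7.16 and 5.55 CPM with RA at 30 h and at 0.636, 0.462 and 0.736 CPM without (3.18 ± 0.25, adjusted p = 0.00018). Its untreated 30 h libraries lay below every untreated library of 18 and 42 h, and its mean at day 2 was 2.57 CPM. With RA its mean at 18 h was 7.35 CPM. By 54 h the arms overlapped, at 6.17 to 8.07 CPM with RA and 6.26 to 7.63 CPM without. Sema3e, a secreted guidance signal of the semaphorin family (chromosome 5, 14025276-14256689), stood at 46.7, 43.8 and 48.0 CPM with RA at 30 h and at 4.73, 4.68 and 5.69 CPM without (3.06 ± 0.13, adjusted p = 2.4e-05). The untreated 30 h libraries were low for Sema3e, since the untreated libraries at 18 h stood at 19.2 to 20.9 CPM and those at 42 h at 18.3 to 24.1 CPM. Ptprz1, a receptor phosphatase of neural progenitors and glia, was called at 8, 30 and 42 h, with 24.0, 24.5 and 21.6 CPM against 6.29, 6.56 and 7.12 CPM at 8 h (1.78 ± 0.10, adjusted p = 0.00019). Prtg, an immunoglobulin-family protein of the early neural tube, gave 285, 307 and 132 CPM against 129, 117 and 108 CPM at 8 h (0.98 ± 0.26, adjusted p = 0.055) and 698, 847 and 712 CPM against 351, 330 and 343 CPM at 30 h (1.00 ± 0.10, adjusted p = 0.00043). Dsc3, a desmosomal cadherin, was near the CPM threshold and passed no RA contrast.

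Among ligands, receptors and their partners, Kit, the receptor of stem cell factor (chromosome 5, 75574916-75656722), was called at the earliest time. At 8 h it stood at 200, 177 and 172 CPM with RA and at 53.9, 53.9 and 49.2 CPM without. At 30 h the values were 214, 119 and 204 CPM against 54.1, 53.8 and 57.4 CPM, and at 54 h 46.1, 62.7 and 58.6 CPM against 48.1, 50.4 and 48.2 CPM. At 42 h it still stood at 91.8, 94.2 and 88.9 CPM against 45.1, 45.3 and 48.2 CPM. The RA libraries lay above the untreated ones at 8, 30 and 42 h, and the arms overlapped at 54 h. Kit rose at 8 h (1.77 ± 0.08, adjusted p = 8.3e-05) and at 30 h (1.57 ± 0.22, 0.0022).

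Lefty1, a secreted inhibitor of Nodal signalling (chromosome 1, 180935022-180938400), changed side. With RA it stood at 52.7, 56.2 and 63.1 CPM at 30 h against 19.0, 18.5 and 25.9 CPM without, above in every library. At 54 h it stood at 1.70, 4.66 and 5.65 CPM with RA and at 13.5, 11.4 and 13.6 CPM without, below in every library. It rose at 30 h (1.30 ± 0.15, adjusted p = 0.001) and was the member called lower at 54 h (-1.72 ± 0.29, adjusted p = 0.00057).

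Vegfa, the main growth signal for blood vessels, was called at 8 h alone of the tested times, at 53.5, 51.5 and 41.6 CPM with RA against 14.4, 12.8 and 13.6 CPM (1.81 ± 0.10, adjusted p = 0.00016). At 30 h the untreated libraries, at 66.0 to 70.4 CPM, overlapped the RA libraries, at 56.0 to 71.2 CPM. Plat, tissue plasminogen activator, was slower. It stood at 39.0, 44.3 and 35.8 CPM with RA at 30 h against 3.29, 3.53 and 3.44 CPM (3.40 ± 0.13, adjusted p = 2.4e-05), and was still called at 54 h (1.58 ± 0.13, 2.3e-06). Wls, which carries Wnt proteins to the cell surface, gave 73.0, 144 and 71.7 CPM against 19.5, 15.7 and 14.8 CPM at 30 h (2.38 ± 0.28, adjusted p = 0.0011) and was called again at 42 h. Porcn, the enzyme that adds a lipid to Wnt proteins, was called at 8 h (1.09 ± 0.14, adjusted p = 0.0041) and 42 h (1.23 ± 0.10, 3.6e-06) and gave 0.37 ± 0.21 at 30 h (adjusted p = 0.22). Fzd4, a Wnt receptor, passed none of the 4 tests, with log2 fold changes from 0.38 to 0.85. Ndnf, a secreted neuron-derived factor, stood at 4.36, 7.53 and 6.10 CPM against 1.52, 1.62 and 1.57 CPM at 30 h (1.79 ± 0.25, adjusted p = 0.002).

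**Figure D3:**
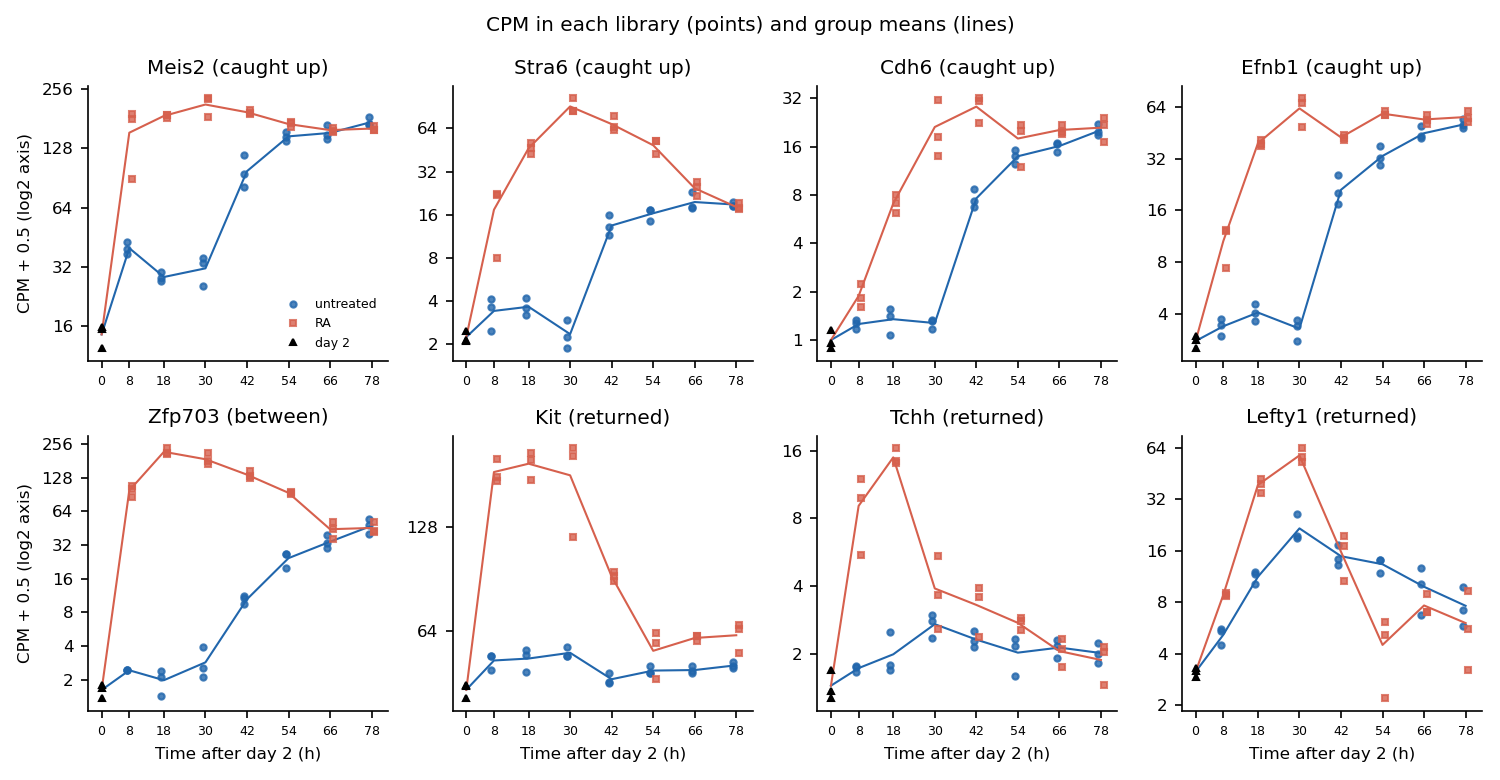
CPM + 0.5 on a log2 axis by hours after day 2 for Meis2, Stra6, Cdh6, Efnb1, Zfp703, Kit, Tchh and Lefty1, with 1 point per library and lines through the group means, with RA and without. In Meis2, Cdh6 and Efnb1 the untreated points climb to the RA points after 30 h, in Stra6 the untreated points climb while the RA points come down, and in Kit, Tchh and Lefty1 the RA points come down.

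Genes of ion channels and transmitter receptors were spread over the times. Chrna4, a neuronal nicotinic receptor subunit, stood at 21.2, 17.0 and 17.4 CPM with RA at 30 h and at 5.76, 7.05 and 7.51 CPM without (1.32 ± 0.16, adjusted p = 0.0013). Chrnb1, a subunit of the muscle-type nicotinic receptor, was called at 54 h alone, at 7.48, 8.85 and 7.52 CPM against 4.12, 3.76 and 3.33 CPM (1.04 ± 0.15, adjusted p = 0.00015). Slc12a5, the neuronal potassium-chloride cotransporter, and Hcn4, a pacemaker channel, were called at 30 h (1.43 ± 0.17, adjusted p = 0.001, and 1.84 ± 0.28, adjusted p = 0.0031). Kcnj12, an inward-rectifier potassium channel, P2rx3, an ATP-gated channel of sensory neurons, and Ano1 were called at none of the 4 times. At 54 h Ano1 stood at 1.98, 3.51 and 3.78 CPM with RA and at 5.91, 6.06 and 5.56 CPM without, below in every library (-0.97 ± 0.22, adjusted p = 0.0034, short of the fold of 1).

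Other members stood out at 8 h. Tchh, trichohyalin of the hair root sheath, stood at 9.32, 11.5 and 4.98 CPM with RA at 8 h against 1.26, 1.27 and 1.17 CPM (2.75 ± 0.31, adjusted p = 0.0024), and at 2.10, 4.97 and 3.17 CPM against 2.47, 2.31 and 1.87 CPM at 30 h, where the arms overlapped. Cdk15, a cyclin-dependent kinase relative, stood at 4.19, 4.45 and 7.48 CPM at 8 h against 0.367, 0.613 and 0.450 CPM (3.45 ± 0.37, adjusted p = 0.002). From 30 h on no library of either arm passed 0.333 CPM of Cdk15, too few reads for a test. Rhobtb1 rose at 8 h from 1.99, 1.79 and 1.44 CPM to 10.3, 9.05 and 13.9 CPM (2.64 ± 0.25, adjusted p = 0.0012), and Tmem229b, a membrane protein of unknown role, from 5.13, 5.14 and 3.69 CPM to 27.02, 29.1 and 25.9 CPM (2.52 ± 0.15, adjusted p = 0.00019). Replicate 3 with RA was the highest of its group for Rhobtb1 and the lowest, by little, for Tmem229b. Ddit3, the transcription factor CHOP of the stress response, stood at 12.9, 13.6 and 27.6 CPM with RA at 8 h, highest in replicate 3, against 5.97, 5.19 and 6.76 CPM (1.57 ± 0.34, adjusted p = 0.029). At 30 h it lay below in every RA library, at 9.20, 6.53 and 12.4 CPM against 15.5, 15.8 and 17.3 CPM (-0.92 ± 0.23, adjusted p = 0.024), so it passed neither test.

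The other members, by class, were Agpat3, Casq1, Col9a1, Dcaf12l1, Eml6, Gm11611, Gm26562, H2-Bl, Helz2, Lrrk1, Npr1, Paqr6, Pgbd5, Ptpn20, Rasgrp3, Rbks, St8sia6, Tmtc1, Acp5 and 2810459M11Rik among the returned. Abca5, Agap2, BB218582, Plce1, Plppr1, She and Srcin1 lay between. Ago4, Cuedc1, Fhod3, Gm42547, Gm45716, Gpr153, Kdelr3, Klhl29, Map2k6, Mest, Mpped1, Phactr2, Ppm1e, Ppp3cc, Rasl10b, Rcan2, Tdrd7, Tmem181b-ps, Tspyl4, Zfp618 and 9330159F19Rik had caught up. By mean CPM with RA at 18 h the highest values, which grow with transcript length, were those of Mest (693), an imprinted mesodermal gene, Prtg (642), Zfp703 (217), Kit (194), Meis2 (187), Agpat3 (186), H1f0 (133), Vegfa (92.7), Sema3e (80.7) and Dcaf12l1 (79.5). Per kilobase of exon the highest levels were those of Mest (176 CPM per kb), Prtg (70.0), H1f0 (64.9) and Zfp703 (64.0).

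The RA effect was tested at 8, 30, 42 and 54 h, times the rule did not use. A gene was called when its adjusted p was under 0.01 and its log2 fold change was above 1 in size, in an edgeR fit of the 6 libraries of that time over all genes that passed the low-count filter. At 8 h all 84 members passed the filter and 24 were called higher with RA (1.26% of all genes tested were), 0 lower (0.537%), with a median log2 fold change of 1.20 against 0.02 over all genes. At 30 h, 82 passed and 44 were called higher (5.98%), 0 lower (2.48%). At 42 h, 83 passed and 32 were called higher (7.49%), 0 lower (4.96%). At 54 h, 80 passed, 5 were called higher (7.17%) and 1 lower (5.99%), with a median of 0.38 against 0.00 over all genes. For the 3 counts of 0, edgeR's unadjusted p was under 0.05 with a lower level for 0 members at 8 h, 2 at 30 h and 1 at 42 h, and DESeq2 called 0 at each time. At 54 h the share called higher was near that of all genes. Without untreated replicate 1 or 2 at 30 h the 44 came to 24 (2.23% and 2.37% of all genes). Without 1 of the untreated 8 h libraries the 24 came to between 8 and 10 (0.361% to 0.545%). The 5 at 54 h came to 10 without untreated replicate 2 (6.44%), 8 without untreated replicate 3 (6.38%) and 9 without RA replicate 2 (6.52%). When an adjusted p under 0.05 sufficed, whatever the fold, 44 members were higher at 8 h (5.96% of all genes tested) and 0 lower (5.25%), 69 higher at 30 h (16.2%) and 1 lower (12.7%), 64 higher at 42 h (27.1%) and 1 lower (23.7%), and 44 higher at 54 h (26.9%) and 7 lower (24.7%).

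In libraries rather than calls, every RA library lay above every untreated library for 62 of the 84 members at 8 h (21.1% of all genes with reads did), for 76 at 30 h (34.4%), 68 at 42 h (36.0%) and 48 at 54 h (35.4%). Every RA library lay below for 0 members at 8 h (16.2%), 1 at 30 h (15.5%), Ddit3, 1 at 42 h (23.0%) and 8 at 54 h (24.7%).

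**Figure D4:**
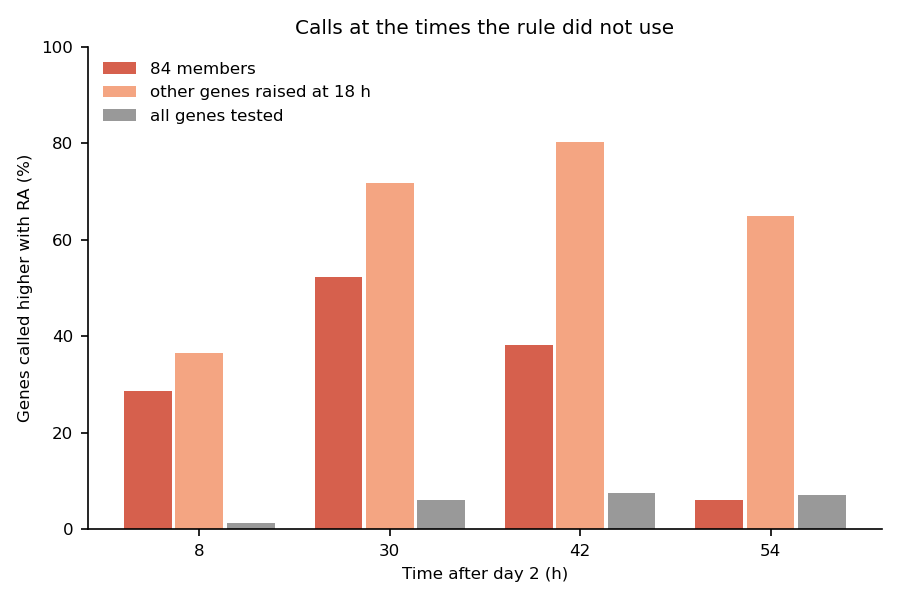
Share, in percent from 0, of the 84 members, of the 263 other genes raised at 18 h and of all genes tested that edgeR called higher with RA at 8, 30, 42 and 54 h. The members' bars stand for 24, 44, 32 and 5 genes, and that of 54 h is near the bar of all genes.

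The genes called differed between the times. Called higher in at least 1 of the 4 tests were 65 members, and 19 were called in none. Called at both 8 and 30 h were 9 members, out of 24 and 44. The share of all genes called over several tests was not counted, so these counts are a description. By class, 13 of 29 returned, 2 of 12 between and 9 of 43 caught-up members were called at 8 h, and 8, 5 and 31 at 30 h. At 42 h the counts were 4, 6 and 22. The 5 called higher at 54 h were Zfp703, Plat, Stra6, Chrnb1 and Rbks, a ribokinase, which stood at 3.96, 3.41 and 3.18 CPM against 1.36, 1.66 and 1.71 CPM (1.08 ± 0.20, adjusted p = 0.00089). Of the 263 other genes raised at 18 h, 96 were called higher at 8 h, 189 at 30 h, 211 at 42 h and 171 at 54 h. Among these 263, 186 stood above 0.5 at both 66 and 78 h, so their share at 54 h also largely follows from the rule.

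From 30 to 54 h the RA-treated and the untreated libraries were compared within each arm. Without RA, 80 members passed the filter, 28 rose (6.07% of all genes tested did) and 1 fell, Ddit3 (1.7%). Of the 28, 23 had caught up, 3 lay between and 2 had returned. The classes were made from the levels at 18, 66 and 78 h, so the split by class of every change up to 54 h largely follows from how they were made and is a description. The largest rises were those of Cdh6 (log2 fold change 4.08 ± 0.17, adjusted p = 3.9e-11), Ndnf (3.67 ± 0.13, 6.1e-12), Irx2 (3.62 ± 0.14, 1.3e-11), Efnb1 (3.51 ± 0.13, 1.3e-11) and Pcdh19 (3.38 ± 0.21, 4.7e-09). Meis2 rose by 2.18 ± 0.09 (4.4e-11) and Stra6 by 3.07 ± 0.17 (7.5e-10).

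With RA, 82 members passed, 1 rose, Ndnf (1.89 ± 0.28, adjusted p = 0.0073, against 1.42% of all genes), and 11 fell (1.71%). Of the 11, 9 had returned and 2 lay between. Lefty1 fell most (-3.84 ± 0.39, adjusted p = 0.0027), followed by Gm26562 (-2.11), Acp5 (-1.96), which encodes tartrate-resistant acid phosphatase, 2810459M11Rik (-1.95) and Tmtc1 (-1.90). Sema3e (-1.81 ± 0.13, 0.0013) and Kit (-1.70 ± 0.25, 0.007) fell too. No caught-up member was called lower by edgeR, 10 of the 43 had an unadjusted p under 0.05 with a lower level, and their median change was -0.14 against -1.22 for the returned. The count of 11 moved with single libraries, as did the share of all genes tested. Without RA 30 h replicate 1 the count was 0 (0.0115% of all genes), and without RA 54 h replicate 2 or 3 it was 0 (0.0% each). Without RA 30 h replicate 3 it was 1 (0.121%), without RA 54 h replicate 1 it was 2 (0.0914%), and without RA 30 h replicate 2 it was 16 (6.03%). Of the caught-up members, 22 rose without RA and were not called with it, 20 were called in neither arm, and Ndnf rose in both. Of the returned, 8 fell with RA alone and Sema3e fell with RA and rose without it. At an adjusted p under 0.05, 26 members fell with RA (8.38% of all genes tested) and 6 rose (7.2%), and 44 rose without RA (22.2%) and 13 fell (20.0%).

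**Figure D5:**
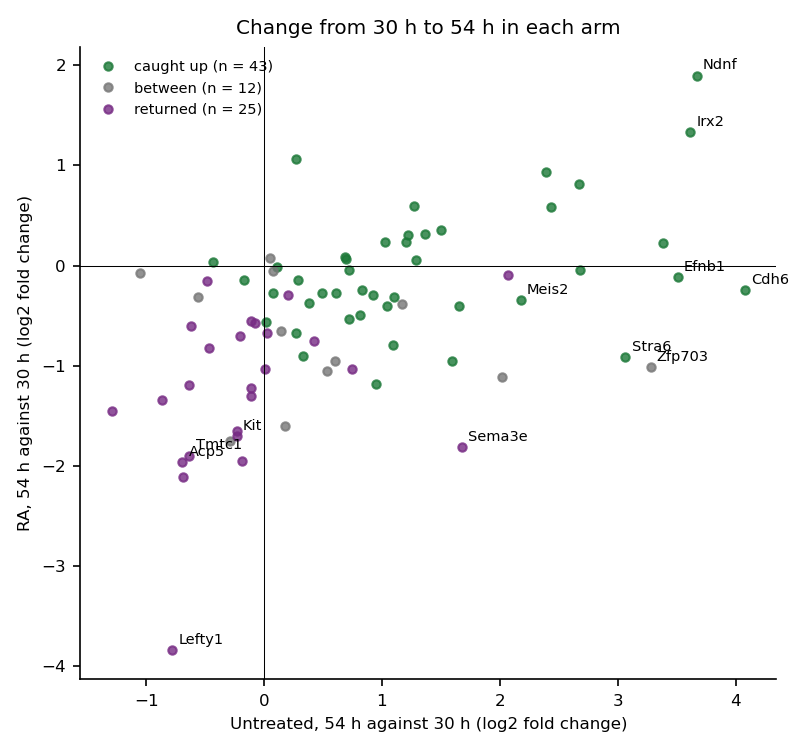
Change from 30 to 54 h (log2 fold change, edgeR) without RA on the horizontal axis and with RA on the vertical axis, 1 point for each of the 80 members tested in both arms, coloured by class, with lines at 0. The caught-up members spread to the right (median 1.05 without RA and -0.14 with it over those tested in each arm) and the returned members lie below (-0.20 without, -1.22 with).

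An interaction term, fitted to the 12 libraries of 30 and 54 h, asked whether the RA effect itself differed between these times, with calls at an adjusted p under 0.01 and no fold minimum. Smaller and larger here mean a lower and a higher signed log2 effect, so Lefty1, which changed side, counts as smaller. Of 83 members tested the effect was smaller at 54 h in 31 (2.67% of all genes tested) and larger in 0 (1.08%), with a median difference of -1.16 against -0.05 over all genes. For the count of 0, 3 members had an unadjusted p under 0.05 in that direction and DESeq2 called 2. The rule used none of these libraries, but it fixed the differences at 18 h before them and at 66 h after them, so the direction is no independent finding. The 31 were 20 caught-up, 7 returned and 4 in-between members. Among the other genes raised at 18 h, 70 of 263 had a smaller effect and 2 a larger one. At an adjusted p under 0.05 the effect was smaller in 44 members (6.01%) and larger in 2 (3.44%). The difference was -4.28 ± 0.46 for Cdh6 (adjusted p = 0.00012), -4.26 ± 0.27 for Zfp703 (1.7e-06), -3.94 ± 0.25 for Stra6 (1.6e-06), -3.59 ± 0.24 for Efnb1 (3e-06) and -3.46 ± 0.16 for Sema3e (1.2e-07). Kit (-1.43 ± 0.27, 0.0058) and Prtg (-0.76 ± 0.13, 0.0027) were called too, whereas Wls (-1.44 ± 0.31, 0.012) was not.

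Compared with day 2, most members were higher at 54 h in both arms. With RA 57 of 83 tested rose (20.6% of all genes) and 4 fell (14.2%), and without RA 52 of 82 rose (15.0%) and 1 fell (11.0%). The caught-up members made up 41 of the 57 and 42 of the 52, the returned 6 and 3. Both comparisons share the day 2 libraries. The 4 that fell with RA came to 2 without RA replicate 2 or 3 at 54 h or without day 2 replicate 1 (13.8%, 14.0% and 13.4% of all genes). Plat rose by 6.53 ± 0.14 with RA (adjusted p = 1.6e-11) and by 4.94 ± 0.20 without (4.2e-12), from 0.571, 0.548 and 0.617 CPM at day 2. Foxd4 fell with RA (-1.96 ± 0.55, adjusted p = 0.007).

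Some libraries stood apart and touch these counts. RA replicate 3 at 8 h was the lowest of its group for 66 of the 84 members, with a median log2 difference of -0.56 from the mean of the other 2, and its summed member level was 1507 CPM against 2313 and 2350 CPM, above the untreated 850 to 878 CPM. It also had a low level of Y-linked genes (3.43 CPM against 77.0 and 89.7) and a mitochondrial share of counts of 0.0781% against 0.00287% and 0.00299%. Without it, 57 members were called higher at 8 h (3.71% of all genes), of them 22 returned, 8 between and 27 caught up. At 30 h all untreated libraries and RA replicates 1 and 3 had low Y-linked levels (1.24 to 3.09 CPM) and RA replicate 2 had 31.7 CPM. The 54 h libraries of both arms had 24.3 to 33.4 CPM. Without RA the change from 30 to 54 h therefore cannot be told apart from this difference between libraries. With RA, replicates 1 and 3 at 30 h differ in the same way from all 54 h libraries. The change with RA from 30 to 54 h cannot be told apart from this difference either. The interaction of RA and time uses the same libraries. Without RA replicate 2 at 30 h, 54 members were called higher at 30 h (8.96%), 16 fell and 5 rose from 30 to 54 h with RA (6.03% and 5.91%), and the RA effect was smaller at 54 h in 51 (8.15%) and larger in 2 (9.3%). By the library numbers in the labels, RA replicates 2 and 3 at 30 h, untreated replicate 3 at 54 h, day 2 replicate 3 and all libraries of 66 and 78 h belong to a later series than the rest. With the earlier series alone at 30 h, which leaves 1 RA library against 3 untreated, the members' median log2(CPM + 0.5) difference was 1.26, against 1.40 with all 6, and 55 members lay above 1, against 62. All RA libraries of 54 h are of the earlier series, so the change with RA from 30 to 54 h spans both series. The part of all these libraries in the calls was not tested otherwise.

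The untreated 30 h libraries lay below every untreated library of both 18 and 42 h for 9 of 83 members with reads, Col9a1, Map2k6, Mest, Ndnf, Npr1, Pcdh19, Rasgrp3, Sema3e and Stra6, and this held for 16.0% of all genes with reads. An alternative with 8 h in place of 30 h was chosen after the data were seen. With it the RA effect was smaller at 54 h in 27 members (5.72% of all genes) and larger in 0 (5.11%). Without RA replicate 3 at 8 h it was smaller in 51 members, but the share of all genes with a smaller effect rose as well. Under that alternative 15 of the 27 had returned and 10 had caught up, and Cdh6 (-0.52) and Irx2 (-0.64) were no longer called. From 8 to 54 h with RA 26 members rose (13.5% of all genes), 25 of them caught up, and 20 fell (9.59%), 19 of them returned, a split that again follows largely from how the classes were made.

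Gene lists written with earlier results of these data known held few of the members. The RA pathway list of 27 genes held Stra6, and RA raised 7 of its 24 tested genes at 8 h and lowered 0, raised 13 and lowered 2 of 23 at 30 h, and raised 9 and lowered 4 of 25 at 54 h, with medians of 0.67, 1.32 and 0.65. In that list Rarb, an RA receptor, was raised by 5.03 ± 0.25 at 8 h (adjusted p = 8.7e-05) and by 4.39 ± 0.18 at 54 h (2.2e-08), and Dhrs3, which reduces retinal, by 3.6 ± 0.26 and 1.37 ± 0.17 (0.00043 and 6.6e-05). The hindbrain and Hox cofactor list of 23 genes held Irx2, Meis2 and Zfp703, and RA raised 6 of 19 at 8 h, 13 of 23 at 30 h and 13 of 23 at 54 h, lowering 0, 0 and 2. The adhesion and guidance list of 212 genes held Cdh6, Efnb1, Pcdh19 and Sema3e, with 3 raised and 3 lowered of 118 tested at 8 h, 23 and 13 of 145 at 30 h, and 18 and 19 of 142 at 54 h. The list of homeodomain and other developmental transcription factor families, 220 genes, held Foxd4, Irx2 and Meis2, with 36 raised and 8 lowered of 148 at 30 h and 55 and 14 of 159 at 54 h. Lefty1 was in the pluripotency list, where RA raised 2 and lowered 6 of 16 at 30 h, and Ddit3 in the stress and p53 list, where it raised 1 of 16 and lowered 0. The other 12 lists held no member.

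Markers of other cell types moved with RA as well. The 12 endoderm genes summed to between 60.0 and 60.5 CPM with RA at 18 h and between 13.7 and 15.4 CPM without, led by Dab2, with 5 and 9 of the 12 under 1 CPM. The 8 germ cell genes summed to 777 to 807 CPM with RA and to 221 to 233 CPM without, led by Stra8 with RA (543 CPM), and none was under 1 CPM. The 16 mesoderm genes summed to 85.0 to 90.6 CPM against 51.1 to 56.5 CPM, the 10 neural crest genes to 23.4 to 26.3 CPM against 59.1 to 60.5 CPM and the 17 trophoblast and surface ectoderm genes to 240.1 to 266 CPM against 206 to 225 CPM. The untreated neural crest sum was led by Foxd3 (42.9 CPM), while 3 of the 10 genes were under 1 CPM with RA against 6 without. The sum of the 13 neuron genes was lower with RA, and without RA it was led by Stmn2 (77.9 CPM). That of the 9 blood and endothelium genes, led by Pecam1, was higher, with 7 of the 9 under 1 CPM against 4 without. The sum was higher for the 22 neural tube progenitor genes and lower for the 16 pluripotency genes (1399 to 1550 CPM against 3795 to 4002 CPM). At 54 h the sums of endoderm (72.7 to 80.0 CPM with RA against 14.2 to 18.8 CPM), germ cell (227 to 281 against 94.8 to 124), mesoderm (47.2 to 55.6 against 37.0 to 38.9) and neural tube progenitor genes (1480 to 1762 against 850 to 1033) were again higher. The germ cell sum with RA was led by Stra8 (162 CPM). Of the 8 germ cell genes, 2 were called higher at 54 h and 1 lower, with a median log2 fold change of 0.06. The sums of neural crest (153 to 222 against 39.7 to 47.6) and trophoblast and surface ectoderm genes (420 to 458 against 132 to 141) were higher too. With RA the neural crest sum was mostly Ednrb (136 CPM). Of the 9 neural crest genes tested at 54 h, 5 were called higher and 1 lower, with a median log2 fold change of 1.20. The sums of pluripotency genes (287 to 505 against 2206 to 2288) and neuron genes (183 to 191 against 306 to 342) were lower. The untreated neuron sum was led by Stmn2 (188 CPM). Of the 13 neuron genes, 4 were called higher with RA at 54 h and 2 lower, with a median log2 fold change of 0.53. Their part in the members' values was not tested.

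The values next to the thresholds of the rule were close. By d(18) the last members were Map2k6 (1.51), H1f0 (1.51) and Stat5b (1.52), and Cntfr (1.498), Ubap1l (1.49) and Reep1 (1.48) lay just outside. By CPM with RA at 18 h Dsc3 (3.02), Cdk15 (3.13) and BB218582 (3.51) were just inside, and Gcgr (2.90), Gm44 (2.74) and 2210011C24Rik (2.61) just outside. By d(66) Acp5 (0.50), H2-Bl (0.49) and Chrna4 (0.46) were inside the upper limit and Cacna1g (0.50), Creb3l2 (0.51) and Gm27861 (0.53) outside, while 2810459M11Rik (-0.49), Tmtc1 (-0.37) and Lefty1 (-0.36) were inside the lower limit and Smpd3 (-0.52), Gabrg1 (-0.58) and Nt5e (-0.60) outside. By d(78) Dcaf12l1, Acp5 and Chrnb1 (0.47 each) were inside the upper limit and Ltbp3 (0.51) and Baz1a (0.53) outside, while Paqr6 (-0.49), Gpr153 (-0.48) and Klhl29 (-0.45) were inside the lower limit and Ntrk2 (-0.54), Efemp1 (-0.55) and Rgma (-0.55) outside.

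Counts of some members may hold reads of other genes. H2-Bl belongs to the MHC class I family and Tmem181b-ps is a pseudogene. Exons of Eml6 and Rtn4, Mest and Copg2, Ddit3 and Mars, P2rx3 and Ssrp1, Kdelr3 and Ddx17, and Npr1 and Gm16048 overlap on opposite strands, and those of Gm45716 and Mmd on the same strand. The strand setting of the counting was not given in the sources used here.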

How the data were processed

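RNA was measured in 45 libraries of neuroepithelial organoids, 3 per group. Per the labels and the study's methods, the authors made single-end reads from a directional poly(A) kit, trimmed them with Trim Galore 0.5.0, removed abundant sequences with Bowtie 2 (2.3.4.1), aligned to GRCm38 with STAR and deposited the raw counts per gene from featureCounts (Subread 1.6.2). The submitters' processing notes name these tools. Handling of reads with several matches was not given in the sources used here.

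From the counts, CPM was computed from column totals for the rule and the levels, which were compared without a test. RA contrasts at 8, 30, 42 and 54 h, changes from 30 to 54 h and from day 2 to 54 h, and the interaction of RA with time used edgeR 4.0.16 in R 4.3.3 (TMM scaling, filterByExpr with a minimum count of 10 and total of 15, quasi-likelihood test, Benjamini-Hochberg adjustment over all genes tested). DESeq2 1.42.0 was an alternative, and others are given below. The scripts were tested on simulated data. Members and gene lists were chosen with earlier results of these data known. The genes named were those in a list, those of highest CPM or d(18), those of largest called change and those next to a threshold, of which 1 is not reported here. Fzd4, Porcn, Wls, Ptprz1, Prtg, the channels and the other members described in full were chosen after their values were seen, to cover roles. Gene positions are from GENCODE on GRCm38. The p-values treat the 3 libraries of a group as biological replicates. The paper's methods give RA as 250 nM and the times used here, and the sample titles give the same times. The deposited treatment protocol instead gives the dose in micromolar and later hours for the last collections.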

Additional observations from a re-analysis of the deposited data

Results flagged for a closer look

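The RA effect differed between 30 and 54 h in the members by a test of the difference itself, the interaction term of edgeR's quasi-likelihood fit over 12 libraries. It was smaller at 54 h in 31 members (2.67% of all genes tested) and larger in 0 (1.08%; 3 had an unadjusted p under 0.05 in that direction, and DESeq2 called 2). Smaller means a lower signed effect, and that of Lefty1 changed side. The rule chose the members by a difference at 18 h that lay within 0.5 in size at 66 and 78 h. This direction is therefore no independent finding. On the log2 scale the effect at 54 h minus that at 30 h was -4.28 for Cdh6, -4.26 for Zfp703, -3.94 for Stra6, -3.59 for Efnb1, -3.46 for Sema3e, -3.12 for Pcdh19, -3.02 for Lefty1, -2.49 for Meis2 and -2.25 for Irx2. With 8 h in place of 30 h, Cdh6 (-0.52), Irx2 (-0.64), Pcdh19 (-0.75) and Stra6 (-0.96) were no longer called.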

How the results depend on the processing

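At an adjusted p under 0.05 with no minimum fold, 44 members were called higher at 8 h, 69 at 30 h (1 lower), 64 at 42 h (1 lower) and 44 at 54 h (7 lower), 26 fell and 6 rose from 30 to 54 h with RA, 44 rose and 13 fell without RA, 7 and 6 fell from day 2 to 54 h with and without RA, and 2 had a larger effect at 54 h. In 1 fit of all 45 libraries, 51 were called higher at 8 h (2.66% of all genes) and 9 at 54 h (6.79%), 22 fell (6.47%) and 3 rose (3.92%) from 30 to 54 h with RA, and 48 had a smaller effect at 54 h (5.95%). Samples were not treated as paired by replicate number, since at none of the tested times did every same-numbered pair correlate over 0.1. At 30 h 2 of these pairs did (0.19 and 0.20), and all 3 did at 66 h, a time not tested. A fit with the replicate as a block gave 12 higher at 8 h (0.568%), 2 lower at 54 h, and 7 falling and 0 rising from 30 to 54 h with RA. Library totals gave 11 higher at 54 h and 0 falling from 30 to 54 h without RA, and moved the median of all genes by 0.14 at 30 h and by 0.15 from day 2 to 54 h with RA. RLE scaling and DESeq2 gave 2 lower at 54 h each. DESeq2 and no filter gave 3 rising each with RA and 2 and 1 with a larger effect at 54 h, and no filter 2 falling from day 2 without RA.

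With 8 h in place of 30 h, chosen after the data were seen, 26 rose and 20 fell to 54 h with RA (13.5% and 9.59% of all genes). Without RA 8 h library 3 these were 27 and 23 (14.2% and 12.2%). That fit gave 51 with a smaller effect, and the share of all genes with a smaller effect rose too. Without RA 49 rose and 3 fell (12.4% and 9.2%), and Sema3e (-0.29) and Ddit3 (0.36) turned. Leaving out 1 library gave 8 to 57 higher at 8 h, 24 to 54 at 30 h (0 to 1 lower), 28 to 34 at 42 h and 5 to 10 at 54 h (1 to 3 lower), 0 to 16 falling and 0 to 5 rising with RA, 25 to 29 rising without, 2 to 4 falling from day 2 with RA and 1 to 2 without, 23 to 51 with a smaller and 0 to 2 with a larger effect at 54 h, and 80 to 87 members. The 57 was without RA 8 h replicate 3, and without an untreated 8 h library the count was 8 or 10. Over the same fits the share of all genes called higher ran from 0.361% to 3.71% at 8 h and from 2.23% to 8.96% at 30 h. The share falling from 30 to 54 h with RA ran from 0.0% to 6.03%. The rule with d(18) of at least 1 gave 266 members, with TMM scaling 65, 62 of them shared, and with a pseudocount of 1 69, 60 of them shared. The other counts stayed within 1.5 times of the values reported.

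Depth limited the tests of weak genes: 80 of the 84 members were tested at all 4 times, and Cdk15 at 8 h alone.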

Other observations

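In 9 pairs, members lay within 1 Mb of each other on the same chromosome. Chrnb1 and Zbtb4 end 13 bases apart on chromosome 11, on opposite strands. Zbtb4 was called higher with RA at 42 h and Chrnb1 at 54 h. Gm11611 and Srcin1 overlap on chromosome 11. The other gaps ran from 61406 bases (Abca5 and Map2k6) to 739035 bases (Cuedc1 and Ppm1e), with 184069 bases between Chrna4 and Helz2 and 197605 bases between Agap2 and Ddit3.

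Cyp26a1, the enzyme that breaks down RA, met the thresholds and was left out by name. Its mean at 18 h was 289.6 CPM with RA and 2.64 CPM without (d(18) 6.53), and d was 0.43 at 66 h and -0.48 at 78 h. Hoxa2, a hindbrain Hox gene, had means of 5.51 and 0.584 CPM at 18 h (d(18) 2.47).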
